A study of Rattus norvegicus with 14 samples.

Results

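MicroRNAs (miRNAs) of leukocytes and of inflammatory signalling were followed on the rat pancreatic islet arrays of the series, from rows whose name, without its arm or star suffix, is miR-142, miR-223, miR-150, miR-155, miR-146a, miR-146b or miR-342. The rule found 8 of the 350 rat miRNAs on the array, covering 6 of these 7 families. The rows are rno-miR-142-3p, rno-miR-142-5p, rno-miR-223, rno-miR-150, rno-miR-146a, rno-miR-146b, rno-miR-342-3p and rno-miR-342-5p, given without the species prefix from here on, and miR-155 is not analysed here. Islets came from female rats at day 14 of gestation (4 arrays) and from control female rats (4 arrays), and each array carried total RNA labelled with cyanine 3. The labels give no strain and no age, and name no treatment besides pregnancy. Arrays of a group are labelled as biological replicates, with no word on how many animals each held, so every p-value refers only to the spread among arrays. The INS832/13 cell arrays of the same series, a separate experiment on a beta-cell line, are not used here.

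The arrays had a summed miRNA signal of 148467 to 229760 and 157 to 188 detected miRNAs each, and the small number of arrays limits the precision. The islet label was borne out by miR-375 and miR-7a, which were detected on all 8 arrays, with miR-375 between 7836 and 11031, while miR-184, a further islet miRNA, was detected on none. A value given below as a signal is the deposited linear intensity, scaled so that arrays share the 75th percentile of the miRNAs detected on all 8 of them. Levels of different miRNAs were not set against each other, because each is read by its own probes. The array of pregnant replicate 2 stands apart for several of these miRNAs, so each group difference is given with it and without it.

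A miRNA is a short RNA that guides a silencing complex to messenger RNAs by pairing mainly through its seed, bases 2 to 8 from its 5′ end. Some miRNAs are made almost only by blood cells, so in a whole organ their signal reports on resident or circulating leukocytes as well as on the organ's own cells. Islets hold resident macrophages beside their endocrine cells. In whole-islet RNA more cells of a type and more RNA per cell cannot be told apart.

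The mature sequences show which of the 8 miRNAs can share targets or cross-react on a probe. They were taken from RefSeq (rat build GRCr8), where 7 of the 8 array names matched an entry. Names without an arm were read as the arm that held the name earlier (miR-223 as 3p, miR-146a and miR-146b as 5p). The seed is in capitals.
miR-142-3p: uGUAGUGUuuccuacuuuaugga
miR-142-5p: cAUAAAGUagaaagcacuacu
miR-223: uGUCAGUUugucaaauacccc
miR-146a: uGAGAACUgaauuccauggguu
miR-146b: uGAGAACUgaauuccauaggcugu
miR-342-3p: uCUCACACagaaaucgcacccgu
miR-342-5p: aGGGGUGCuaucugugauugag

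These 7 sequences held 6 distinct seeds. MiR-146a and miR-146b shared theirs with each other, and no matched member shared a seed with any further entry among the 724 mature rat miRNAs of the table. Over the first 22 bases miR-146a and miR-146b were identical at 20, with G18A and U21C from miR-146a to miR-146b, positions counted from the 5′ end, and miR-146b runs 2 bases longer. Signals of this pair are therefore uncertain where one may bind the other's probe. Both miR-142 arms come from 1 hairpin on chr10:73055104-73055190, plus strand, inside the span of the Tspoap1 gene. The miR-342 hairpin lies on chr6:133329655-133329753, plus strand, inside the span of Evl, a gene for an actin regulator. The miR-146a hairpin (chr10:28349996-28350090, minus strand) and the miR-223 hairpin (chrX:65151383-65151492, plus strand) each lie within the span of an annotated long non-coding RNA. The miR-146b hairpin (chr1:255144860-255144947, plus strand) lies within the span of C1h10orf95.

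**Figure D1:**
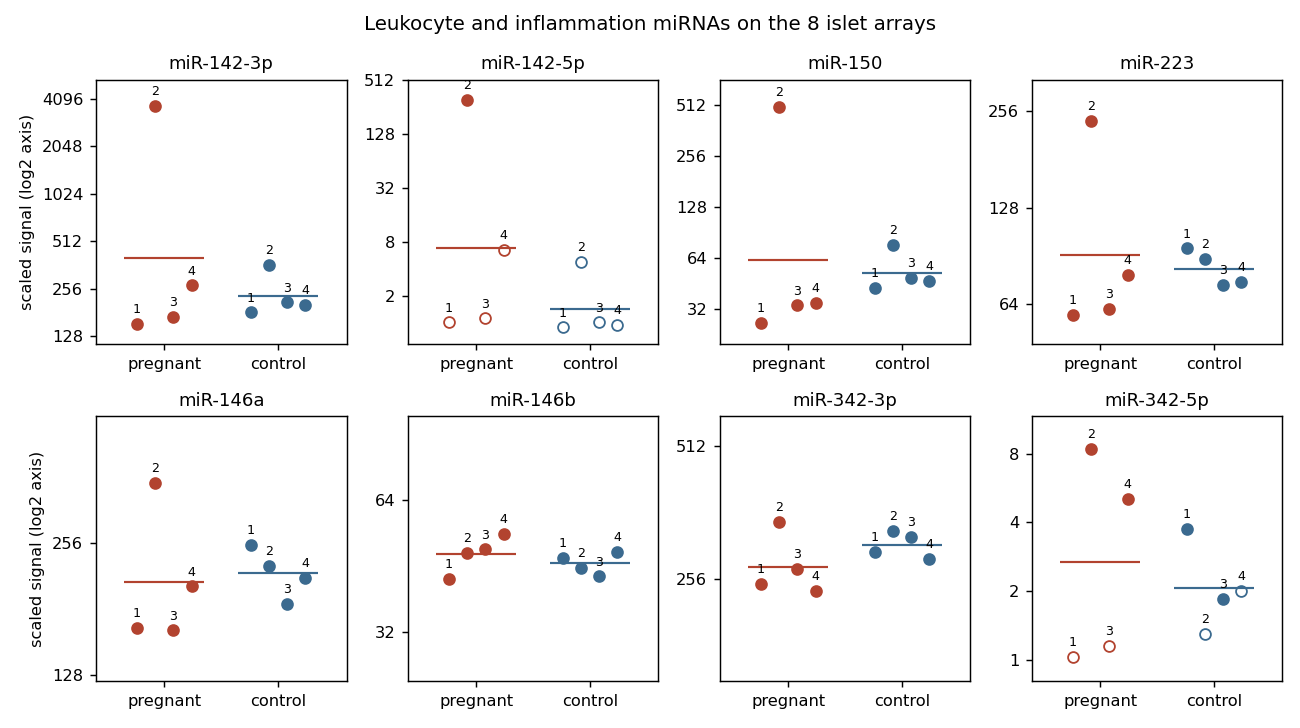
Scaled signal (log2 axis, a panel per miRNA) of the 8 miRNAs on each islet array, pregnant on the left and control on the right. Points are arrays with their replicate number, open where the miRNA was not flagged as detected, and lines are means of the log2 values. Pregnant replicate 2 is the highest array for all miRNAs shown except miR-146b.

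Of the 7 members detected on at least 4 of the 8 arrays, and so tested, 0 passed the threshold between pregnant and control islets. The threshold is a Benjamini-Hochberg adjusted p under 0.05 in limma, and 8 of all 171 tested miRNAs (4.68%) passed it. At an unadjusted p under 0.05 the counts were 0 of the 7 members and 42 of the 171 (24.6%). The groups of 0 of the 7 members were free of overlap, where 25 of the 171 (14.6%) were. The 7 members had a median log2 difference, pregnant minus control, of 0.14, with 5 of the 7 positive, against a median of -0.02 over the 171 miRNAs, of which 82 were positive. The members' adjusted p-values ran from 0.445 (miR-342-3p) to 0.875 (miR-146a).

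MiR-142, the miRNA gene most nearly restricted to blood cells, gave the widest spread. MiR-142-3p had a signal of 154, 3702, 169.7 and 269 in pregnant replicates 1 to 4, against 182, 361.9, 209.9 and 202.8 in control replicates 1 to 4. Pregnant replicate 2 lay 10.2-fold above the next array, control replicate 2, while the other 7 arrays spanned 2.35-fold, and the groups overlapped. Its mean log2 signal was 8.65 ± 2.16 in pregnant islets and 7.85 ± 0.45 in control islets (SD, n = 4 each). The log2 difference of 0.80 (SE 0.98, 95% interval -1.48 to 3.08, limma adjusted p = 0.622) was smaller than its error.

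The other arm of the same hairpin, miR-142-5p, was flagged as detected on 1 of the 8 arrays, pregnant replicate 2, at a signal of 312. It read 1.03, 1.14 and 6.56 in pregnant replicates 1, 3 and 4 and 0.905 to 4.81 in control islets, all flagged as not detected. These low readings are only bounds, so no group difference is given for this arm. Both arms of miR-142 were thus at their highest on the same array.

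MiR-150, abundant in mature B and T lymphocytes, where it represses Myb in mice, followed the same order at the top. Its signal was 26.6, 497, 33.8 and 34.8 in pregnant replicates 1 to 4, against 42.7, 77.1, 49.3 and 47.3 in control replicates 1 to 4. Pregnant replicate 2 stood 6.45-fold above the next array, control replicate 2, and the other 3 pregnant arrays lay below all 4 control arrays. The mean log2 signal was 5.97 ± 2.00 in pregnant islets and 5.72 ± 0.38 in control islets (SD, n = 4 each), a log2 difference of 0.25 (SE 0.90, 95% interval -1.84 to 2.35, limma adjusted p = 0.872).

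MiR-223, which marks the myeloid lineage and in mice restrains neutrophil production and activity, had a smaller excess on the same array. It read 59.3, 239, 61.9 and 79.2 in pregnant replicates 1 to 4, against 95.6, 88.7, 73.4 and 75.1 in control replicates 1 to 4. Pregnant replicates 1 and 3 lay below all 4 control arrays, pregnant replicate 4 lay among them and pregnant replicate 2 was 2.50-fold above the highest, control replicate 1. The log2 difference was 0.14 (SE 0.43, 95% interval -0.85 to 1.14, limma adjusted p = 0.836).

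MiR-146a is induced by NF-kB and represses the signalling proteins TRAF6 and IRAK1, a feedback on Toll-like receptor and interleukin 1 signalling that was first described in human monocytes. Its signal was 165, 351, 162 and 204 in pregnant replicates 1 to 4, against 254, 227, 186 and 213 in control replicates 1 to 4. Pregnant replicates 1 and 3 lay below all control arrays and pregnant replicate 2 was 1.38-fold above the highest control array. The log2 difference of -0.07 (SE 0.25, 95% interval -0.65 to 0.52, limma adjusted p = 0.875) turned to 0.08 under scaling to all rat miRNAs on the array and to 0.02 after quantile normalization, as it did in the authors' processed values.

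MiR-146b, which carries the same seed from another chromosome, was the steadiest of the 8. It read 42.3, 48.5, 49.4 and 53.5 in pregnant replicates 1 to 4, against 47.2, 44.9, 42.9 and 48.8 in control replicates 1 to 4. All 8 arrays lay within a narrow band and pregnant replicate 4, not 2, was the highest. The log2 difference was 0.07 (SE 0.09, 95% interval -0.13 to 0.28, limma adjusted p = 0.622).

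MiR-342-3p, expressed in lymphoid and myeloid cells and also in other tissues, read 249, 344, 269 and 239.8 in pregnant replicates 1 to 4. Control replicates 1 to 4 read 294, 328, 319 and 283. Pregnant replicate 2 was the highest of the 8 arrays and the other 3 pregnant arrays were the lowest. The log2 difference was -0.16 (SE 0.12, 95% interval -0.45 to 0.12, limma adjusted p = 0.445). MiR-342-5p, the other arm, was detected on 2 of 4 pregnant and 2 of 4 control arrays, with signals of 1.03 to 8.41 in pregnant islets and 1.30 to 3.75 in control islets. Its log2 difference of 0.38 (SE 0.73, limma adjusted p = 0.760) rests in part on readings that are only bounds.

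The negative control feature that was brightest on pregnant arrays had a scaled signal of 53.2 to 74.7 there and of 17.2 to 55.1 on control arrays. On the control array where it read 17.2 another negative control feature was brighter, at 20.7 or more. On control arrays the readings of miR-146b, and those of miR-150 outside control replicate 2, lay inside the 17.2 to 55.1 range. On pregnant arrays the readings of miR-150 outside pregnant replicate 2 lay below the 53.2 to 74.7 range. Those of miR-146b lay below it too, except pregnant replicate 4 at 53.5. Both miRNAs were flagged as detected on all 8 arrays. MiR-223 at 59.3 and 61.9 in pregnant replicates 1 and 3 also lies inside the range of the pregnant arrays, and all readings of miR-342-5p lie below both ranges. The order of such low readings, and correlations that draw on them, are correspondingly less certain.

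**Figure D2:**
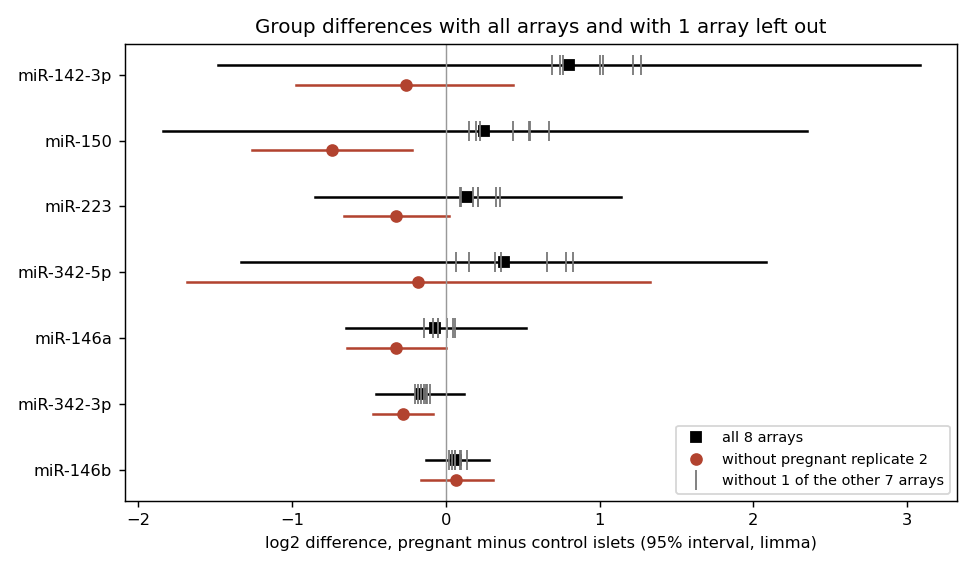
Log2 difference, pregnant minus control islets, of the 7 tested members. Black squares and bars are the estimate and 95% limma interval over 8 arrays, red circles and bars the same without pregnant replicate 2, and grey ticks the estimates without each of the other 7 arrays. For miR-142-3p, miR-150, miR-223 and miR-342-5p the estimate is on the positive side with all arrays and on the negative side without pregnant replicate 2.

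A single array set the sign of the group difference for most members. Without pregnant replicate 2 the log2 difference was -0.26 for miR-142-3p (SE 0.29), -0.74 for miR-150 (SE 0.22), -0.32 for miR-223 (SE 0.14) and -0.18 for miR-342-5p (SE 0.63), each positive when the array was kept. Under scaling to all rat miRNAs miR-342-5p stood at 0.03 without it. MiR-146a came to -0.32 (SE 0.13) and miR-342-3p to -0.28 (SE 0.08), and miR-146b stayed at 0.07 (SE 0.10). The median over the 7 members was -0.28, against -0.03 over the 171 miRNAs. Leaving out any 1 of the other 7 arrays kept miR-142-3p, miR-150, miR-223 and miR-342-5p positive, with miR-142-3p at most 1.27 and miR-150 at most 0.67, both without pregnant replicate 1.

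Without that array 0 of the 7 members passed, against 19 of the 171 miRNAs (11.1%). At an unadjusted p under 0.05 the counts were 2 of the 7 members, miR-150 and miR-342-3p, and 52 of the 171 (30.4%). The smallest limma adjusted p among them was 0.0722, for both miR-150 and miR-342-3p. The mean log2 signal of miR-150 was then 4.98 ± 0.21 in pregnant islets (SD, n = 3) and 5.72 ± 0.38 in control islets (SD, n = 4). The 3 pregnant readings behind it, 26.6, 33.8 and 34.8, lay below the brightest negative control feature on pregnant arrays, so no fold is given. For miR-342-3p it was 7.98 ± 0.08 in pregnant islets (SD, n = 3) and 8.26 ± 0.10 in control islets (SD, n = 4), a fold of 0.825. For these 2 of the 7 members the 3 remaining pregnant arrays lay below all 4 control arrays, as they did for 31 of the 171 miRNAs (18.1%). An exact permutation test, 2-sided, gave p = 0.0286 for each, which is the smallest that 3 against 4 arrays allow, and this test was run after pregnant replicate 2 had been seen to stand apart. The miR-150 difference without pregnant replicate 2 was between -0.70 and -0.48 under the other scalings and the authors' processed values, with limma adjusted p-values of 0.0859 to 0.157. The miR-342-3p difference was between -0.23 and -0.07, with limma adjusted p-values of 0.358 to 0.883.

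The array names in the file headers place all 8 arrays on 1 slide with 2 rows, reading a digit of the name as the row. Row 1 held pregnant replicates 2, 3 and 4 and control replicate 2, and row 2 held pregnant replicate 1 and control replicates 1, 3 and 4. Within row 1 the log2 difference was 0.61 for miR-142-3p, 0.12 for miR-150, 0.25 for miR-223 and -0.0052 for miR-146a. Within row 2 it was -0.36, -0.80, -0.45 and -0.39 for the same miRNAs. With the row as a block the estimates were 0.13 for miR-142-3p, -0.34 for miR-150, -0.10 for miR-223 and -0.20 for miR-146a, and 0 members passed (lowest limma adjusted p = 0.263). The part of the row in these differences was not tested apart from that fit.

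**Figure D3:**
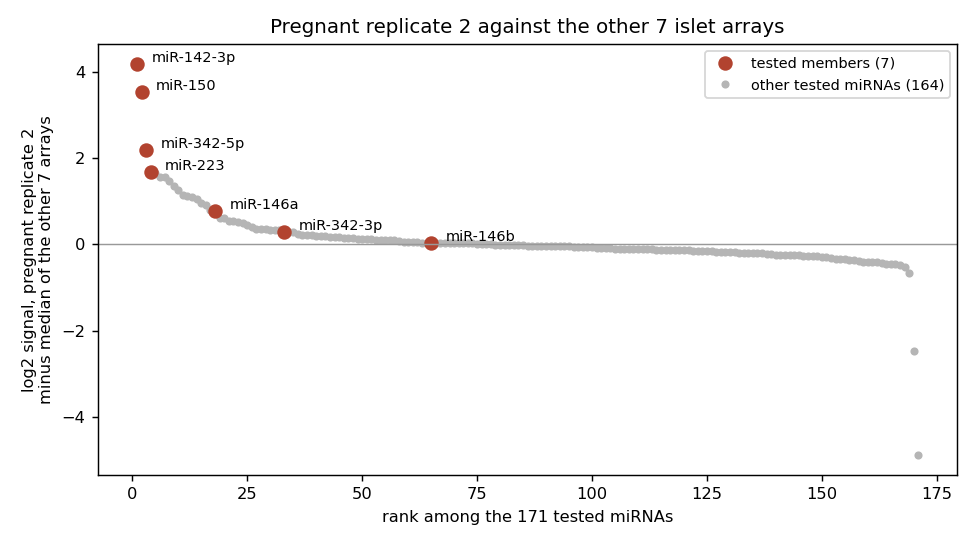
Log2 signal of pregnant replicate 2 minus the median of the other 7 arrays, for each of the 171 tested miRNAs, ranked from the highest to the lowest. Red points are the 7 tested members and grey points the other 164. The top 4 ranks are members, the third of them miR-342-5p with 4 arrays not detected, and miR-146b lies near 0.

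Pregnant replicate 2 was the highest of the 8 arrays for 6 of the 7 tested members and for 23 of the 171 tested miRNAs (13.5%). Its deviation from the median of the other 7 arrays was 18.3-fold for miR-142-3p and 3.18-fold for miR-223, at ranks 1 and 4 of the 171 from the highest down. Ranks 2 and 3 fell to miR-150, whose other readings lay largely within or below the negative control range, and miR-342-5p, not detected on 4 of the 8 arrays. Neither of these 2 deviations is therefore given as a fold. The deviation was 1.72-fold for miR-146a (rank 18), 1.21-fold for miR-342-3p (rank 33) and 1.03-fold for miR-146b (rank 65). The largest departures downward were miR-215 (log2 -4.89, detected on 4 arrays) and miR-874 (log2 -2.48, detected on 5). That of miR-215 was larger in size than the 4.19 of miR-142-3p. The median log2 deviation of this array was 1.67 over the 7 members and -0.03 over the 171 miRNAs. The deviation thus differed widely among the members, and the 2 arms of miR-342 lay at ranks 3 and 33.

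With a 2-fold margin, also chosen after the values were seen, 5 of the 171 miRNAs were higher on pregnant replicate 2 than on all other arrays. These were miR-142-3p, miR-150, miR-223, miR-92a and miR-19a. On the other arrays at most 1 tested miRNA stood out to that degree, which was miR-143, a smooth muscle miRNA, on control replicate 2. Outside the tested miRNAs, miR-1 read 84.5 and miR-145 19.9 on control replicate 2, against at most 1.14 on every other array. Each was detected on 1 array. Control replicate 2 was the highest of the 8 arrays for 54 of the 171, against 23 for pregnant replicate 2. That control array was also second highest for miR-142-3p, miR-150 and miR-342-3p.

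**Figure D4:**
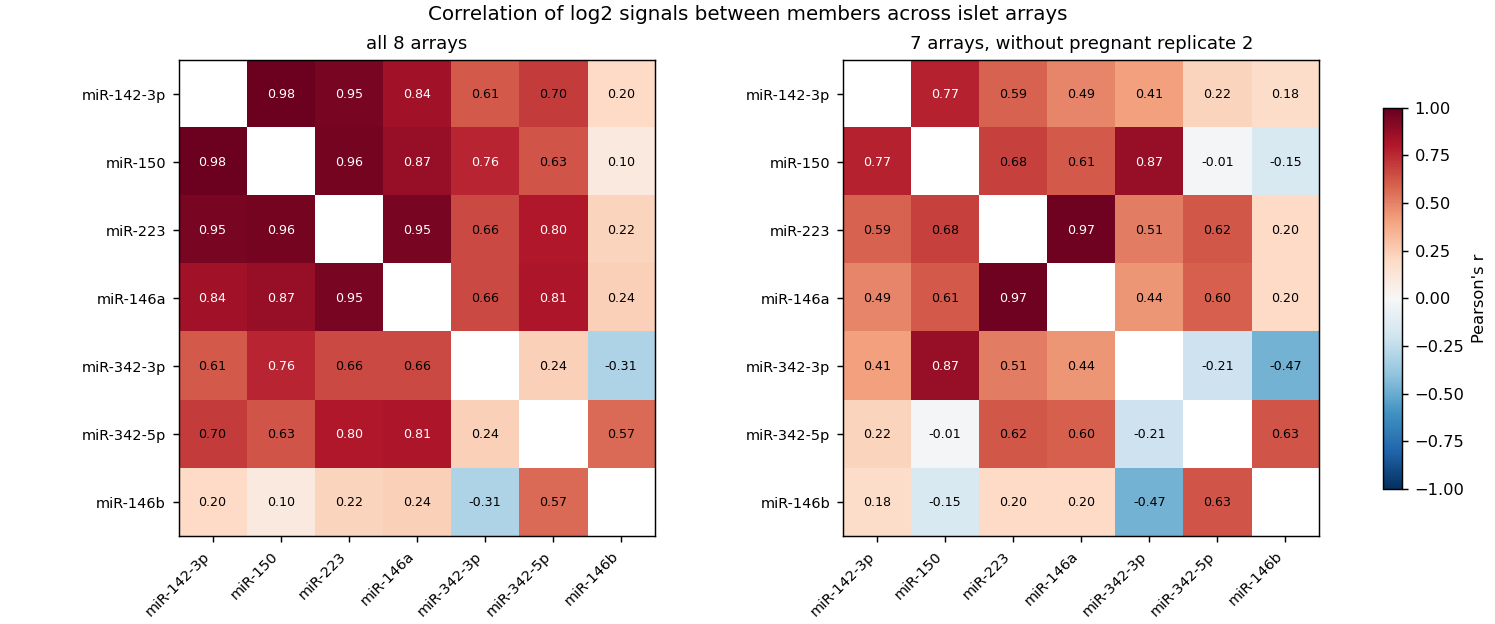
Pearson's r of the log2 signals between the 7 tested members, over all 8 arrays on the left and over 7 arrays without pregnant replicate 2 on the right. The pair of miR-223 and miR-146a has r of 0.95 with all arrays and 0.97 without pregnant replicate 2, while the pairs of miR-142-3p lie lower on the right.

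Co-variation between members was measured over the 8 arrays for all 21 pairs of tested members, with exact permutation p-values adjusted over the 21. By Pearson's r 9 pairs passed an adjusted p of 0.05, and by Spearman's rho 2 did. MiR-142-3p and miR-150 had r = 0.98 (exact permutation p = 0.00387, adjusted 0.0271) and rho = 0.86 (exact permutation p = 0.0107, adjusted 0.0750). Without the 2 arrays farthest from the median of miR-142-3p, which were pregnant replicate 2 and control replicate 2, their r was 0.40 (exact permutation p = 0.440). Leaving out pregnant replicate 2 alone, r was 0.77 and rho 0.79 (exact permutation p of r = 0.0429, adjusted 0.300), so the pair's pass rests on these arrays while a positive r remained. For miR-142-3p with miR-223 (r = 0.95, exact permutation adjusted p = 0.0292, and rho = 0.74, adjusted p = 0.137) r was 0.47 without both arrays (exact permutation p = 0.346) and 0.59 without pregnant replicate 2 alone (exact permutation p = 0.159).

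The pair of miR-223 and miR-146a behaved differently. It had r = 0.95 (exact permutation p = 1.49e-04, adjusted 0.00313) and rho = 0.95 (exact permutation p = 0.00114, adjusted 0.0240). Without the 2 arrays farthest from the median of miR-223, pregnant replicates 1 and 2, r was 0.96 (exact permutation p = 0.00694, adjusted 0.146). Without pregnant replicate 2 alone it was 0.97 (exact permutation p = 0.00179, adjusted 0.0375), and on deviations from the group means 0.98. It was 0.84 with the authors' processed values, where the adjusted exact permutation p was 0.0688. MiR-150 and miR-342-3p had r = 0.76 (exact permutation p = 0.00241, adjusted 0.0253) and rho = 0.90 (exact permutation p = 0.00456, adjusted 0.0479). Without pregnant replicate 2 and control replicate 2 their r was 0.83 (exact permutation p adjusted over the pairs = 0.467). Without pregnant replicate 2 their r was 0.87 (exact permutation adjusted p = 0.0875), and with the authors' processed values it was -0.03.

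MiR-146b did not follow its seed partner, with r = 0.24 (exact permutation p = 0.563, adjusted 0.657) and rho = 0.02 (exact permutation p = 0.977, adjusted 0.977) against miR-146a, and r = 0.44 without the 2 farthest arrays. The 2 arms of miR-342 had r = 0.24 (exact permutation p = 0.562, adjusted 0.657) and rho = 0.29 (exact permutation p = 0.501, adjusted 0.619), and r = 0.35 without the 2 farthest arrays. Within a slide row there are 4 arrays, too few for a correlation.

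For each of 5 members the 3 most alike among the 164 other tested miRNAs were listed by Pearson's r over the 8 arrays, with p-values adjusted over the 164. For miR-142-3p these were miR-92a (r = 0.98, rho = 0.83), miR-20a (r = 0.97, rho = 0.98) and miR-19b (r = 0.97, rho = 0.98), all products of the miR-17/92 cluster, a polycistron known for its role in lymphocyte growth. MiR-20a read 74.3, 223.1, 75.3 and 105.8 in pregnant replicates 1 to 4, against 77.0, 117, 81.3 and 92.4 in control replicates 1 to 4. The exact permutation adjusted p of r was 0.0102 for miR-20a and for miR-19b and 0.0637 for miR-92a. Without pregnant replicate 2 and control replicate 2 the r of miR-142-3p was 0.92 with miR-20a (exact permutation p = 0.00694) and with miR-19b (exact permutation p = 0.00556), and 0.64 with miR-92a (exact permutation p = 0.182). These p-values are not adjusted. The 3 miRNAs had been picked by their r over arrays that include those kept here, so the p-values are no independent test.

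The same 3 miRNAs were most alike to miR-150 and to miR-223. For miR-150 r was 0.98 with miR-92a (rho = 0.83, exact permutation adjusted p of r = 0.0325), 0.95 with miR-19b and 0.94 with miR-20a, the last pair at adjusted p-values of 0.0795 and 0.120. Without the 2 farthest arrays these came to 0.63, 0.47 and 0.23. For miR-223 r was 0.92 with miR-20a and 0.91 with miR-92a and with miR-19b (exact permutation adjusted p = 0.270 for each), and at most 0.37 without the 2 farthest arrays. MiR-146a was most alike to miR-199a-3p (r = 0.89, rho = 0.90), miR-532-5p (r = 0.89, rho = 0.81) and miR-181a (r = 0.88, rho = 0.90), each at an exact permutation adjusted p of 0.0927, and r was 0.73, 0.76 and 0.70 in the same order without the 2 farthest arrays. MiR-342-3p was most alike to miR-130a (r = 0.85, rho = 0.71), miR-181a (r = 0.85, rho = 0.81) and miR-361 (r = 0.81, rho = 0.67), with exact permutation adjusted p-values of 0.191, 0.191 and 0.221, and r was 0.93, 0.83 and 0.78 without the 2 farthest arrays.

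Of 10 further miRNAs with roles in lymphocytes, from the miR-181 family and the miR-17/92 cluster, 6 were tested and 0 passed. Their median log2 difference was 0.17 with all arrays, -0.19 without pregnant replicate 2 and -0.09 when slide row was the block. MiR-181a, which tunes receptor signalling in developing T cells in mice, read 42.0, 149, 39.5 and 52.9 in pregnant replicates 1 to 4, against 74.1, 116, 67.4 and 80.6 in control replicates 1 to 4. Its log2 difference was -0.46 (SE 0.42, limma adjusted p = 0.553), and without pregnant replicate 2 it was -0.89 (SE 0.20, limma adjusted p = 0.0375), a call that no other left-out array gave. The pregnant readings behind that call, 42.0, 39.5 and 52.9, lay below the brightest negative control feature on pregnant arrays (53.2 to 74.7). The size of this difference is therefore uncertain. MiR-181c stood at -0.34 (SE 0.13, limma adjusted p = 0.161).

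Of 12 miRNAs tied to NF-kB or Toll-like receptor signalling 8 were tested and 0 passed, with 2 of 8 positive and a median log2 difference of -0.21. That median was -0.20 without pregnant replicate 2, -0.06 under scaling to all rat miRNAs and -0.10 after quantile normalization. MiR-125b-5p had a log2 difference of -0.38 (SE 0.10, limma adjusted p = 0.0717) and let-7i one of -0.21 (SE 0.06, limma adjusted p = 0.0852). The first of these passed after quantile normalization (limma adjusted p = 0.0420), with a limma trend (0.0400) and when slide row was the block (0.0499), and stood at -0.23 (limma adjusted p = 0.400) under scaling to all rat miRNAs. Let-7i passed with a limma trend (adjusted p = 0.0355) and stood at -0.06 (limma adjusted p = 0.747) under scaling to all rat miRNAs. MiR-21, which is induced in many inflamed tissues, read 2203 to 3514 in pregnant islets and 2339 to 4222 in control islets. Pregnant replicate 2 had a median log2 deviation of 1.30 for the 6 lymphocyte miRNAs and of -0.15 for these 8.

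**Figure D5:**
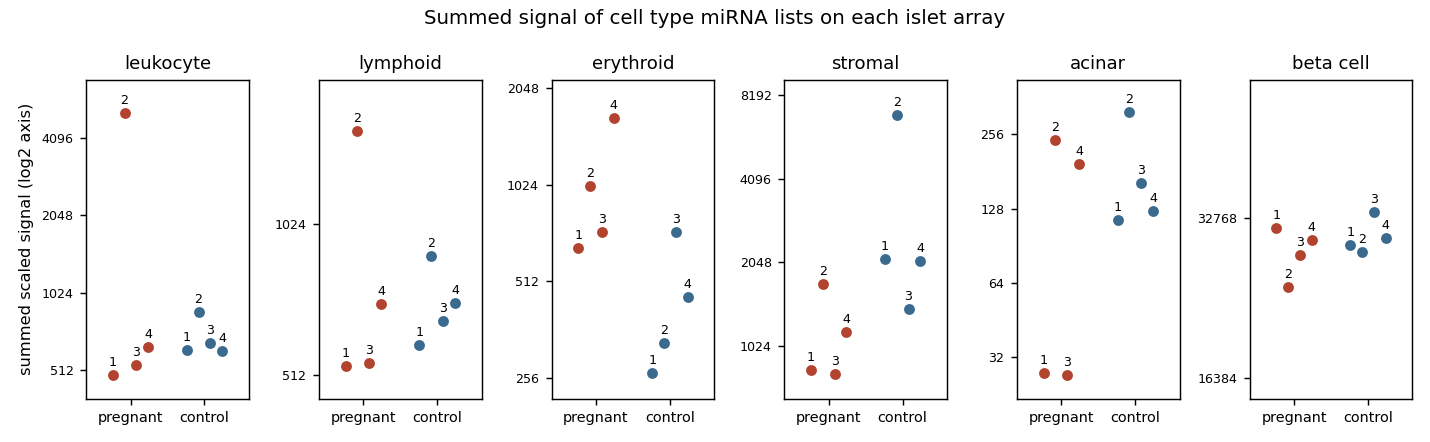
Summed scaled signal (log2 axis) of the miRNAs of 6 lists on each islet array, pregnant on the left and control on the right, with replicate numbers. The leukocyte and lymphoid sums peak on pregnant replicate 2, the stromal and acinar sums on control replicate 2 and the erythroid sum on pregnant replicate 4.

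Markers of other cell types also varied between arrays. The leukocyte list (miR-142-3p, miR-142-5p, miR-223, miR-150 and miR-342-3p, with 4 of 5 detected on all 8 arrays) summed to 489.7 to 5093 in pregnant islets and 609 to 860.5 in control islets. The erythroid pair, miR-144 and miR-451, detected on all 8 arrays, summed to 651 to 1653 in pregnant islets and 266 to 732 in control islets, with pregnant replicate 2 at 1018. The stromal and smooth muscle list (4 of 8 detected on all arrays, miR-133a on none) summed to 809 to 1714 in pregnant islets, highest on pregnant replicate 2, and to 1387 to 6983 in control islets, highest on control replicate 2. The acinar list, of which miR-216a was detected and miR-217 was not, summed to 27.5, 243, 27.0 and 193 in pregnant replicates 1 to 4 and to 115 to 314 in control islets. The endothelial pair, miR-126 and miR-126*, summed to 1280.3 to 1736 in pregnant islets and 1662 to 1776 in control islets. The liver list (miR-192 and miR-194 detected on all 8 arrays, miR-122 on none) summed to 186 to 240.0 in pregnant islets, lowest on pregnant replicate 2, and to 250.1 to 365 in control islets.

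The beta-cell list (4 of 5 detected on all arrays, miR-184 on none) was at its lowest on pregnant replicate 2, at 24324. The other pregnant arrays had 27961 to 31353 and the control arrays 28320.1 to 33674. Its brightest rows, miR-7a (15545) and miR-375 (7836), were each lowest on that array. MiR-7b (820.1) was lower on pregnant replicate 4 (794.8). MiR-338 (121.8) was the highest of the pregnant arrays there, though below all control arrays. Against the median of the other 7 arrays miR-7a was at 0.815-fold, miR-375 at 0.841-fold, miR-7b at 0.779-fold and miR-338 at 0.730-fold. On pregnant replicate 2 the leukocyte sum was 8.29-fold, the lymphoid sum 2.38-fold, the acinar sum 1.94-fold, the erythroid sum 1.56-fold and the stromal sum 1.24-fold the median of the other 7 arrays. The endothelial sum was 1.05-fold, the beta-cell sum 0.816-fold and the liver sum 0.744-fold that median. The leukocyte list consists of members, so its sum only restates their values. MiR-142-3p gave 3702 of its 5093 on this array, while miR-342-3p of the same list was at 1.21-fold. Within the stromal list miR-143, its brightest row, was at 1.02-fold and miR-10b at 1.08-fold. MiR-199a-3p was at 2.53-fold, miR-199a-5p at 2.37-fold and miR-214 at 1.89-fold. That median mixes both groups, and miR-143 and miR-10b had negative log2 differences (-1.42 and -1.04, neither passing). Among pregnant arrays both were highest on pregnant replicate 2. MiR-143 read 1012 there against 594.7 to 835.2 on the others, and miR-10b 194.7 against 77.8 to 108.0. The erythroid sum of 1018 there lay between those of other pregnant arrays (651 to 1653). The part of the cell makeup of the preparations in the members' differences was not tested.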

How the data were processed

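Signals of 350 rat miRNAs came from Agilent miRNA arrays (100 ng of total RNA, miRNeasy extraction, cyanine 3), per the labels' protocols. For the scanning software, none is given in the sources used here. Deposited values comprise a linear intensity per miRNA, the authors' log2 values normalized between arrays, whose columns share most of their sorted values as quantile normalization gives, and detection flags. The series matrix held the same log2 values as deposited. Columns were matched to samples by their labels.

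Arrays were brought to a shared 75th percentile, taken over the 153 miRNAs that every array detected, by factors of 0.81 to 1.3. Scaled values were floored at 0.81 and put on the log2 scale. The 171 miRNAs detected on at least 4 arrays entered lmFit and eBayes (limma 3.58.1, R 4.3.3), with Benjamini-Hochberg adjustment over the 171, and the steps were tested on simulated data. Exact permutation tests and correlations used SciPy 1.17.1. Named miRNAs are the rule's rows, the 3 most alike for each of 5 members, and miRNAs of the lists. The members and lists were chosen with earlier results of these data known. Replicate numbers did not pair the samples: same-numbered deviations correlated at -0.14, 0.17, -0.28 and -0.49. Alternatives were 4 other scalings or value sets, floors, detection filters, limma options, blocks for replicate number and slide row, and each array left out.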

Additional observations from a re-analysis of the deposited data

Results flagged for a closer look

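In groups of 4 arrays, a highest or lowest array was looked for whose gap to the nearest of the others exceeded Dixon's 95% critical share of the group's range, on the log2 scale. In all 36 groups were examined, and chance alone marks about 1 in 20 groups where the miRNA was not picked from these values. MiR-92a and miR-130a were named for their likeness to members on these same arrays, so that rate does not hold for them. For miR-150 pregnant replicate 2 was at 8.96, where the other pregnant arrays were between 4.74 and 5.12 (gap 0.91 of the range). For miR-92a the same array was at 8.73, with the other pregnant arrays between 6.97 and 7.18 (gap 0.88 of the range). For miR-130a control replicate 2 was at 9.65, with the other control arrays between 9.26 and 9.28 (gap 0.95 of the range).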

How the results depend on the processing

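No member passed the threshold under any of the alternatives run, and their adjusted p-values lay between 0.0722 and 0.996 over the limma fits. Of 195 alternative values for the members, 161 kept their direction and 34 turned it. The number of miRNAs called, 8 with all arrays, was 2 under scaling to all rat miRNAs, 0 with no scaling (20 at an unadjusted limma p under 0.05), 0 with no detection filter (48 unadjusted), and 23 when slide row was the block (4 higher, 19 lower). With 1 array left out it ran from 0 to 19: 19 when pregnant replicate 2 was omitted, 2 for pregnant replicate 3, 1 for control replicate 3, and 0 for each of the other 5, where 32 to 49 passed an unadjusted limma p under 0.05. The replicate block gave 10 calls, 0 of them members, and changed no member's call. With 1 array left out miR-142-3p ran from -0.26 to 1.27, miR-150 from -0.74 to 0.67, miR-223 from -0.32 to 0.35, miR-146a from -0.32 to 0.06 and miR-342-5p from -0.18 to 0.83. Scaling to all rat miRNAs moved the median of all tested miRNAs to 0.13.

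Besides the estimates without pregnant replicate 2 given earlier, values that turned direction, with the cause not tested, were as follows. MiR-146a was 0.08 under scaling to all rat miRNAs and 0.02 with quantile normalization and with the authors' values. With the row as a block miR-150 was -0.34 and miR-223 -0.10. By group medians, an alternative chosen after seeing the data, they were -0.49 and -0.22. Within slide row 2 miR-142-3p was -0.36, miR-150 -0.80, miR-223 -0.45, miR-342-5p -1.22 and miR-146b -0.13. Without pregnant replicate 2 and with another scaling, also chosen after seeing the data, miR-142-3p was -0.06 (all rat miRNAs), -0.22 (no scaling), -0.09 (quantile) and -0.09 (authors' values). In the same order miR-150 was -0.53, -0.70, -0.48 and -0.53, and miR-223 was -0.11, -0.28, -0.17 and -0.20. MiR-342-5p was -0.13 with no scaling and -0.39 with quantile normalization and with the authors' values. The 9 correlated pairs became 1 under scaling to all rat miRNAs, 0 with the authors' values (5 of 21 at an unadjusted exact permutation p under 0.05), 0 without the 2 farthest arrays (1 of 21 unadjusted) and 1 without pregnant replicate 2. With no scaling 11 pairs passed, and on deviations from group means 10 did. The correlation of miR-142-3p was -0.27 (authors' values) and -0.10 (without the 2 farthest arrays) with miR-342-3p, and -0.14 (scaling to all rat miRNAs) and -0.57 (authors' values) with miR-146b. That of miR-150 with miR-342-3p was -0.03 with the authors' values.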
